A study of Homo sapiens with 6 samples.

Results

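DNA replication in S phase is described here through 49 genes, taken by name from the 39012 gene rows of one RNA-seq table. They were chosen by role: recognition and licensing of origins, the MCM family, activation of the replicative helicase, the sliding clamp and its loader, the polymerases, single-strand binding with lagging-strand processing, nucleotide supply, and the cyclin E kinase. The rule used no measured value, although earlier results of these data were known when it was made. All 49 had reads in every library, and all 49 passed the filter on low levels.

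The RNA came from Jurkat cells, an established human line from a T cell acute lymphoblastic leukaemia. In one group the line stably overexpressed SCML4, which encodes a Polycomb protein related to Sex comb on midleg (3 libraries). The control group carried the empty vector, EV (3 libraries). Both groups had been given PMA at 100 ng/ml with ionomycin at 1 µM for 6 h, which activates protein kinase C and raises calcium in T cells, and there was no unstimulated group. The labels do not say whether either line was a single clone or a pool. Nor do they tie the libraries of a group to cultures of their own, so p-values cover the spread between these 6 libraries alone, and that spread may be technical. An effect of SCML4 and any other difference between the SCML4 and EV lines cannot be told apart. The cell type entry of the labels mentions ouabain, a drug that the treatment entry does not list.

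In late mitosis and G1 the origin recognition complex, with CDC6 and CDT1, loads pairs of MCM hexamers on DNA, which licenses origins. At the start of S phase the kinases CDC7-DBF4 and CDK2 turn the hexamer, together with CDC45 and the GINS complex, into a moving helicase, and the polymerases, clamp and nucleotide enzymes follow. Many of these genes are known targets of E2F transcription factors, which the retinoblastoma protein holds in check until late G1.

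Promoters of the 49 genes were searched for the E2F motif, since such sites are a textbook feature of replication genes. RefSeq promoter windows on GRCh38.p14, from 250 bases before to 50 bases after each gene start, were at hand for 41 of the 49 genes. The motif was searched on both strands in the forms TTTCCCGC, TTTCGCGC, TTTGCCGC and TTTGGCGC. It lay in 19 of the 41 genes, or 46.3%, against 1090 of all 27305 genes with windows, or 3.99%. Those genes were not matched to the 41 for expression, gene type or base composition of the promoter. All 5 MCM family genes with a window held it, as did 3 of 8 licensing genes, 4 of 7 of helicase activation, 2 of 6 of the clamp and loader and 4 of 8 polymerase genes. It was found in 1 of 3 genes of single-strand binding and lagging-strand processing, in 0 of 3 of nucleotide supply and in 0 of 1 of the cyclin E kinase. A match is a description of letters and does not show that a factor binds. The stretches below show the motif in 6 genes of successive steps (loading factor, activating kinase, helicase, clamp, polymerase and ligase), read 5′ to 3′ on the strand of the gene, with the motif in capitals.
CDT1, chr16:88803729-88803788, plus strand: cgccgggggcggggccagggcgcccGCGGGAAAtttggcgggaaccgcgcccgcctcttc
CDC7, chr1:91501019-91501102, plus strand: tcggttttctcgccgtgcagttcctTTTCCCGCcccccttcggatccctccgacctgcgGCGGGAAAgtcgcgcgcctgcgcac
MCM6, chr2:135876508-135876607, minus strand: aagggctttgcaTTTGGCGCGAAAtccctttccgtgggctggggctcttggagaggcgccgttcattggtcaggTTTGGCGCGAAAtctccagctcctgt
PCNA, chr20:5126647-5126706, minus strand: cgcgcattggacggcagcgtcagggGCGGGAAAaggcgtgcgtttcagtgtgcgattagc
POLA1, chrX:24693756-24693815, plus strand: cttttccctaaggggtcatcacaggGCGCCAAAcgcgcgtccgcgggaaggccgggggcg
LIG1, chr19:48170424-48170483, minus strand: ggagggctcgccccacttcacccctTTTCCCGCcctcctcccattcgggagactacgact
In CDC7 one match reads on each strand. In MCM6 each of the 2 capital runs holds a pair of overlapping matches, one on each strand, which gives 4 matches, the most of these 6 genes.

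Libraries held 8953671 to 10336597 reads, worked out from the steps of the deposited FPKM. The level of a gene is its CPM, the reads it held per 1000000 of the library. SCML4 itself had 570, 657 and 506 reads in SCML4 libraries, against 7, 2 and 1 reads in EV libraries. This is 60.99 ± 3.89 CPM in SCML4 and 0.351 ± 0.331 CPM in EV (mean ± SD, n = 3 each), and the library labels and the overexpressed gene match. It was the single gene of 14251 tested (0.00702%) with an adjusted p under 0.05 in limma-trend on log2(CPM + 1), with a log2 difference of 5.55, higher in 3 of 3 SCML4 libraries (adjusted p = 1.67e-09). Over the alternatives its adjusted p ran between 1.2e-16 and 0.0619, the last in the fit of the deposited FPKM. All 8 T cell markers listed for the check were detected, CD3E at 583 to 712 CPM. MS4A1, CD14 and CSF1R, markers of B and myeloid cells, stayed at or below 0.484 CPM, while the B cell receptor component CD79A stood at 21.5 to 33.3 CPM. One library, EV replicate 1, was unlike the rest: on the first principal component (36.3% of the variance) it lay at -30.4, where the other 5 spanned 2.18 to 8.26. The chi-square per gene between it and each other EV library was 10.2, against 2.52 between EV replicates 2 and 3 and 3.03 to 5.31 among SCML4 libraries. Many results below are therefore given with and without it, and a value given once may still depend on it.

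Transcript levels of the replication machinery were close between SCML4 and EV cells. Summed over the 49 genes the level was 5946.4 ± 119.6 CPM in SCML4 and 5932.0 ± 93.7 CPM in EV (mean ± SD, n = 3 each), a difference of 0.243%. By limma-trend, 0 of the 49 genes passed an adjusted p of 0.05, the lowest being 0.865, and limma-voom on the reads also called 0. With no adjustment, 2 genes had p under 0.05, CDT1 (higher in SCML4) and MCM10 (lower), against 750 of all genes tested, or 5.26%. The groups did not overlap in 5 genes, where 11.6% of all genes tested did so, with SCML4 higher in CDT1, MCM7 and POLD3 (6.27% of all genes in that direction) and lower in MCM10 and POLE (5.38%). Differences were positive for 20 genes and negative for 29, with a median of -0.01 on the log2 scale, beside 0.01 for all genes tested. In a bulk library, the share of cells in S phase and the level of these transcripts per cell cannot be told apart.

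**Figure D1:**
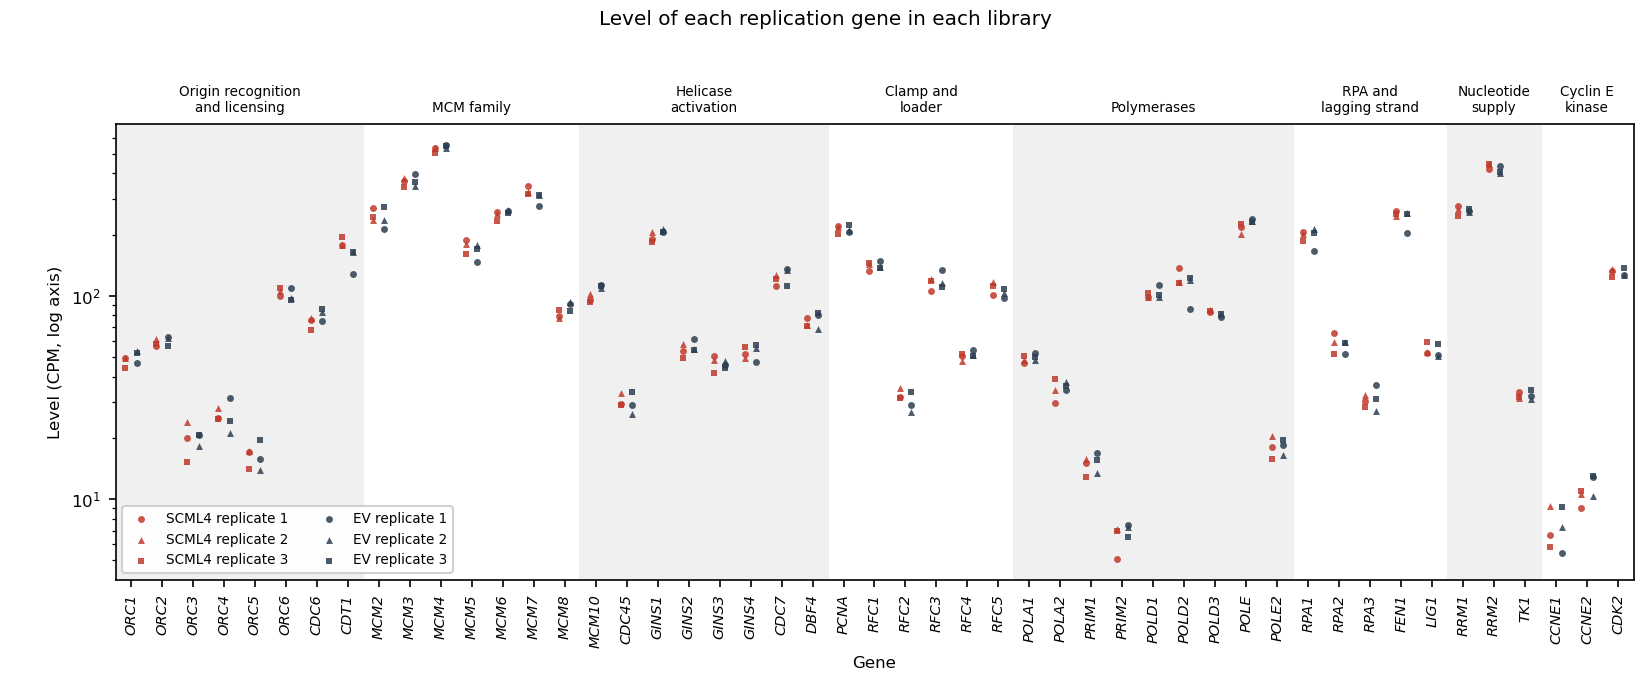
Level of each of the 49 replication genes (CPM, not corrected for gene length, log axis) in each library, with SCML4 libraries left of EV libraries within each gene, 1 symbol per replicate, and genes in order of role. Levels span MCM4 at about 534 CPM to PRIM2 at 6.73 CPM on average, and the SCML4 and EV symbols of a gene lie close together compared with the distance between genes.

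The precision of the comparison is given by the interval of each difference. On the log2(CPM + 1) scale all 49 intervals (95%, from the spread between libraries) lay inside a 1.5-fold change in either direction. So did 78.0% of the intervals of all genes tested and 93.2% of the 10799 genes whose mean levels fell in the range of the 49. That scale understates changes of low genes. For PRIM2 and CCNE2, with lower bounds of -0.52 and -0.54 beside a limit of 0.585, the result may depend on the pseudocount. For 43 of the 49 genes, or 87.8%, the interval lay inside 1.3-fold, against 49.3% of all genes and 63.7% of those 10799 genes. Within their range these genes were not matched to the 49 for level. The exceptions were CDT1, RFC2, POLD2, PRIM2, CCNE1 and CCNE2. The lowest bound of any interval was -0.54, for the cyclin gene CCNE2, and the highest was 0.49, for CDT1. Mean levels over 6 libraries ran between 6.73 CPM for PRIM2 and 534 CPM for MCM4 with a median of 82.2 CPM, resting on 46 to 5482 reads per gene and library. A mean under 20 CPM was found in 7 genes, PRIM2, CCNE1 and CCNE2 among them, and the intervals of these 3 cannot tell a 1.3-fold change from none.

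**Figure D2:**
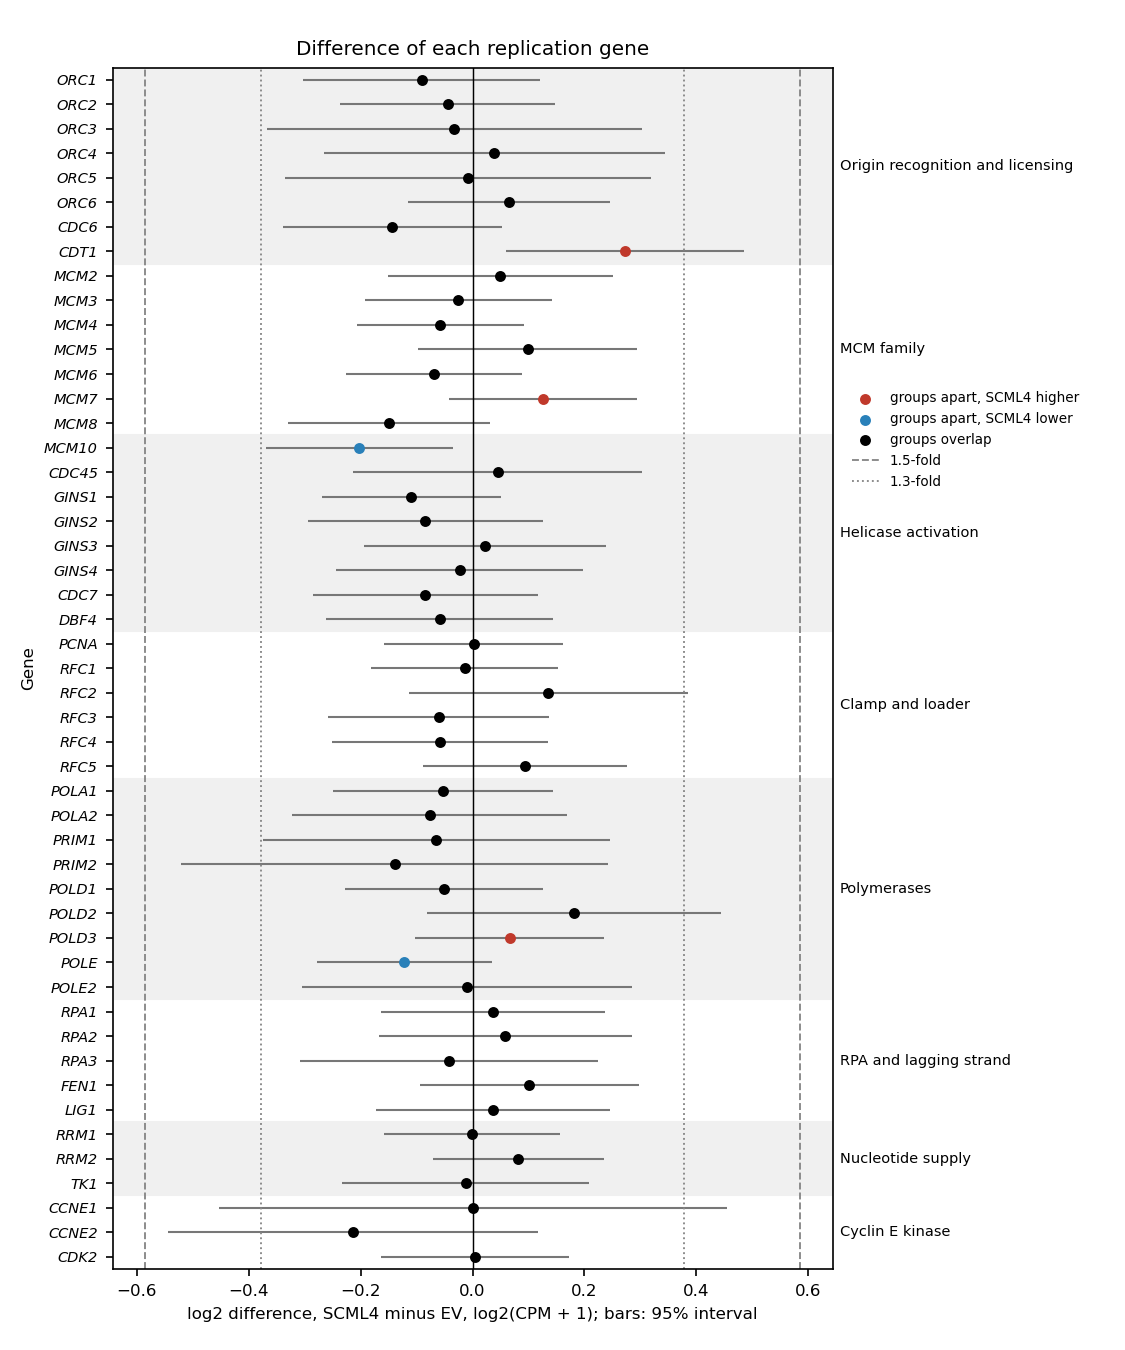
Difference of each gene, SCML4 minus EV on the log2(CPM + 1) scale, as a point with its 95% interval, in order of role. Red and blue mark the 5 genes whose groups do not overlap; each interval lies inside the dashed lines at 1.5-fold, and the intervals of CDT1 and MCM10 do not reach 0.

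Among the genes of origin recognition and licensing, CDT1 was the one member with a higher level in every SCML4 library. Their summed level, CDT1 included, was 521.3, 540.3 and 527.4 CPM in SCML4 libraries, against 488.8, 513.5 and 518.9 CPM in EV libraries. The sums did not overlap and differed by 4.46%, while 5 of the 8 differences were below 0. The lowest of these sums was that of EV replicate 1. With CDT1 taken out the sums of the groups overlapped, so their separation rested on that gene. CDT1, the factor that brings the MCM hexamer to origins and is destroyed once S phase begins, stood at 177, 177 and 194 CPM in SCML4 libraries, against 128, 164 and 165 CPM in EV libraries. The groups did not overlap, but EV replicate 1 lay far below the other EV libraries. Its log2 difference was 0.27 (SE 0.10, 95% interval 0.06 to 0.49), with an unadjusted p of 0.016 (limma-trend; adjusted p = 0.865). Without EV replicate 1 the difference was 0.15 with an unadjusted p of 0.0381, and after correction of each library for GC content and length it was 0.16. CDC6, the ATPase that works beside CDT1, stood at 76.0, 77.7 and 67.7 CPM in SCML4 libraries, against 75.4, 83.4 and 85.95 CPM in EV libraries. Its groups overlapped through EV replicate 1, and the log2 difference was -0.14 (SE 0.09), or -0.20 with an unadjusted p of 0.0266 without that library. So the 2 loading factors had differences of opposite sign, neither of which passed.

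ORC1, the ATPase subunit of the origin recognition complex that comes and goes with the cell cycle, stood at 49.5, 49.2 and 43.9 CPM in SCML4 libraries, against 46.6, 53.2 and 52.4 CPM in EV libraries. The groups overlapped, with a log2 difference of -0.09 (SE 0.10). The other 5 subunits had differences of -0.04 (ORC2) to 0.07 (ORC6). Per kilobase of exonic length, ORC6 was the highest subunit at 23.9 CPM per kilobase and ORC4 the lowest at 2.89, a ratio of 8.41 ± 0.69 in SCML4 and 8.3 ± 1.2 in EV. With the length of the longest transcript in place of the exonic length the ratio over all libraries was 14.6 instead of 8.26. ORC6 was highest and ORC4 lowest with either length, while ORC3 and ORC5 changed places.

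The MCM family, which includes the gene with the most reads of the 49 (MCM4), had no member that passed the test. MCM7, a subunit of the MCM2 to MCM7 hexamer that forms the motor of the helicase, stood at 345, 324 and 316 CPM in SCML4 libraries, against 276, 314 and 314 CPM in EV libraries. Every SCML4 library lay above every EV library, by a narrow margin apart from EV replicate 1. The log2 difference was 0.13 (SE 0.08, 95% interval -0.04 to 0.29), and 0.06 without EV replicate 1. MCM2, the subunit that also binds histones, stood at 269, 236 and 243 CPM in SCML4 libraries, against 214, 237 and 274 CPM in EV libraries. The groups overlapped fully, with a log2 difference of 0.05 (SE 0.09) that became -0.03 without EV replicate 1. MCM8 is not a subunit of that hexamer and works with MCM9 in recombination repair. It stood at 79.9, 77.3 and 85.2 CPM in SCML4 libraries, against 91.2, 93.5 and 84.5 CPM in EV libraries. A single crossing, SCML4 replicate 3 above EV replicate 3, kept its groups from lying apart, and the log2 difference was -0.15 (SE 0.08).

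MCM3, MCM4, MCM5 and MCM6 had log2 differences of -0.03, -0.06, 0.10 and -0.07. Although the hexamer holds each subunit once, their transcripts were not at one level. Per kilobase of exonic length MCM3 was highest at 100.0 CPM per kilobase and MCM5 lowest at 23.3, a ratio of 4.13 ± 0.19 in SCML4 and 4.54 ± 0.79 in EV. MCM5 was also lowest with the length of the longest transcript, where MCM4 took the first place and the ratio was 3.44.

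Genes of helicase activation were the role group with the most negative median, -0.07 on the log2 scale, with 6 of 8 differences below 0. Their summed level was 658.9, 694.7 and 645.8 CPM in SCML4 libraries, against 717.0, 710.1 and 701.6 CPM in EV libraries. These sums lay apart in the other direction from those of licensing and differed by -6.08%, and the sums of the other 6 role groups overlapped. With MCM10 taken out the helicase activation sums overlapped too. Among single genes tested, the groups lay apart in 11.6%. The place of the helicase activation median among the role groups was not kept without EV replicate 1. There it was -0.0312, against -0.1696 for the cyclin E kinase and -0.0339 for the MCM family. Nor was its place kept after the correction for GC content and length. There the median was -0.0358, against -0.0566 for the cyclin E kinase, -0.0484 for the MCM family and -0.0447 for the polymerases. MCM10, which binds the helicase and is needed to start unwinding, stood at 94.99, 102 and 93.4 CPM in SCML4 libraries, against 113, 109 and 112 CPM in EV libraries. All EV libraries lay above all SCML4 libraries, and here EV replicate 1 was close to the other EV libraries. The log2 difference was -0.20 (SE 0.08, 95% interval -0.37 to -0.03), with an unadjusted p of 0.0216 (limma-trend; adjusted p = 0.865), lower in 3 of 3 SCML4 libraries. It was -0.19 without EV replicate 1 and -0.18 after the correction for GC content and length, and its adjusted p over all alternatives ran between 0.429 and 0.99.

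GINS1, a subunit of the 4-membered GINS complex of the helicase, stood at 190.0, 205 and 184 CPM in SCML4 libraries, against 205, 214 and 206 CPM in EV libraries. The groups met at SCML4 replicate 2 and EV replicate 1, and the log2 difference was -0.11 (SE 0.07). CDC45, the other partner of the helicase, stood at 29.4, 33.2 and 28.9 CPM in SCML4 libraries, against 28.9, 26.3 and 33.7 CPM in EV libraries, with a log2 difference of 0.04 (SE 0.12). Its groups overlapped. GINS2, GINS3 and GINS4 had differences of -0.08, 0.02 and -0.02, and the kinase CDC7 and its activator DBF4 had -0.08 and -0.06. Per kilobase of exonic length GINS1 was 5.44 times GINS3, the lowest subunit, and CDC7 was 2.11 times DBF4. With the length of the longest transcript GINS4 was the lowest subunit, and GINS1 was 4.53 times it. The pseudogene DBF4P1 held 66.0% as many reads as DBF4, so the authors' counting may have split reads between them.

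The sliding clamp and its loader were at like levels in both groups, with a median log2 difference of -0.01 and a summed level of 641.5, 682.2 and 658.2 CPM in SCML4 libraries, against 669.5, 645.8 and 661.0 CPM in EV libraries. PCNA, the ring that tethers polymerases to DNA, stood at 221, 219 and 201 CPM in SCML4 libraries, against 206, 211 and 222 CPM in EV libraries. The 2 groups covered nearly the same range. Its log2 difference was 0.0023 (SE 0.07), with a 95% interval of -0.16 to 0.16, and it was -0.02 without EV replicate 1. RFC2, a small subunit of the clamp loader, stood at 31.8, 35.1 and 31.4 CPM in SCML4 libraries, against 29.1, 26.8 and 33.7 CPM in EV libraries. RFC5, another small subunit, stood at 101, 118 and 112 CPM in SCML4 libraries, against 98.01, 103 and 108 CPM in EV libraries. Groups overlapped in both, with log2 differences of 0.14 (SE 0.12) and 0.09 (SE 0.08). Per kilobase of exonic length the loader subunits ran between 40.7 CPM per kilobase for RFC3 and 14.2 for RFC2.

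Of the 9 polymerase genes 7 had negative differences, with a median of -0.05 that became 0.0060 without EV replicate 1. POLE, the catalytic subunit of the polymerase that copies the leading strand, stood at 218, 202 and 224 CPM in SCML4 libraries, against 237, 232 and 230.4 CPM in EV libraries. The groups did not overlap, and EV replicate 1 was close to the other EV libraries. The log2 difference was -0.12 (SE 0.07, 95% interval -0.28 to 0.03), which was -0.11 without EV replicate 1 and -0.15, with an unadjusted p of 0.0288, after the correction for GC content and length. POLE2, its second subunit, had a difference of -0.01. POLD2, an accessory subunit of the lagging-strand polymerase, stood at 137, 116 and 115 CPM in SCML4 libraries, against 86.3, 119 and 122 CPM in EV libraries. SCML4 replicate 1 was high and EV replicate 1 low, and the other 4 libraries lay together. The log2 difference of 0.18 (SE 0.12) was 0.02 without EV replicate 1.

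POLD3, another accessory subunit, stood at 83.4, 84.9 and 83.99 CPM in SCML4 libraries, against 78.5, 81.3 and 81.1 CPM in EV libraries. The groups did not overlap, yet the distance was small and the log2 difference was 0.07 (SE 0.08). POLD1, the catalytic subunit of the same enzyme, had -0.05. POLA1, the catalytic subunit of the polymerase that extends primers, stood at 46.7, 48.1 and 50.5 CPM in SCML4 libraries, against 52.5, 48.4 and 49.8 CPM in EV libraries. Its groups overlapped, with a log2 difference of -0.05 (SE 0.09). Its partner POLA2 and the primase subunits PRIM1 and PRIM2 had differences of -0.08, -0.06 and -0.14, and PRIM2, at 5.08 to 7.48 CPM, had the fewest reads of the 49 genes. Of the exonic bases of POLA2, 35.1% overlap another protein-coding annotation on the same strand. The pseudogene POLD2P1 held 32.1% as many reads as POLD2, at 41.3 ± 2.05 CPM in SCML4 and 33.3 ± 10.8 CPM in EV (mean ± SD).

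Single-strand binding and lagging-strand processing was the group in which EV replicate 1 lay lowest, with a summed level of 616.8, 592.0 and 577.8 CPM in SCML4 libraries, against 509.0, 604.0 and 604.6 CPM in EV libraries. The median log2 difference of 0.04 became -0.0028 without that library. FEN1, the nuclease that trims the flaps of Okazaki fragments, stood at 262, 246 and 252 CPM in SCML4 libraries, against 203, 256 and 253 CPM in EV libraries. Apart from EV replicate 1 the libraries were alike. Its log2 difference was 0.10 (SE 0.09), and -0.0059 without EV replicate 1. RPA2, the middle subunit of the protein that coats single-stranded DNA, stood at 65.8, 59.1 and 51.9 CPM in SCML4 libraries, against 51.6, 59.0 and 58.6 CPM in EV libraries. The groups overlapped, with the lowest value in EV replicate 1 and the highest in SCML4 replicate 1. The log2 difference was 0.06 (SE 0.10), and -0.0028 without EV replicate 1. RPA1, RPA3 and the ligase gene LIG1, which seals the fragments, had differences of 0.04, -0.04 and 0.04. Without EV replicate 1 these were -0.07, 0.06 and 0.0087.

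Nucleotide supply was held by 3 genes with a median log2 difference of -0.0005. RRM2, the small subunit of ribonucleotide reductase and the one whose amount follows S phase, stood at 422, 446 and 446 CPM in SCML4 libraries, against 433, 402 and 407 CPM in EV libraries. SCML4 replicate 1 lay below EV replicate 1, the other SCML4 libraries above all EV libraries, and the log2 difference was 0.08 (SE 0.07). RRM1, the large subunit, stood at 275, 266 and 246 CPM in SCML4 libraries, against 261, 259 and 267 CPM in EV libraries. Its means were nearly equal, 262 ± 14.98 CPM in SCML4 and 262 ± 4.32 CPM in EV, with a log2 difference of -0.0005 (SE 0.07). TK1, the thymidine kinase of the salvage pathway, stood at 33.6, 31.5 and 31.7 CPM in SCML4 libraries, against 32.2, 31.2 and 34.4 CPM in EV libraries. The groups overlapped, with a log2 difference of -0.01 (SE 0.10). The pseudogene RRM2P3 held 47.5% as many reads as RRM2, so the authors' counting may have split reads here too.

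The cyclin E kinase, which fires origins at the border of G1 and S, held the gene with the least precise difference of the 49, CCNE1. CCNE1 stood at 6.62, 9.29 and 5.81 CPM in SCML4 libraries, against 5.40, 7.25 and 9.09 CPM in EV libraries. The spread within each group exceeded the distance between them: the log2 difference was 0.0010 with an SE of 0.21, and -0.17 without EV replicate 1. CCNE2 stood at 9.05, 10.6 and 10.9 CPM in SCML4 libraries, against 12.8, 10.4 and 12.9 CPM in EV libraries. EV replicate 2 lay among the SCML4 libraries, and the log2 difference of -0.21 (SE 0.15, 95% interval -0.54 to 0.12) was the lowest of the 49 genes. Of its exonic bases 37.0% overlap INTS8 on the other strand, and whether counting used strand is not given in the sources used here. CDK2, the kinase that both cyclins activate, stood at 132, 136 and 123 CPM in SCML4 libraries, against 126, 127 and 137 CPM in EV libraries. Its groups overlapped, with a log2 difference of 0.0043 (SE 0.08).

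**Figure D3:**
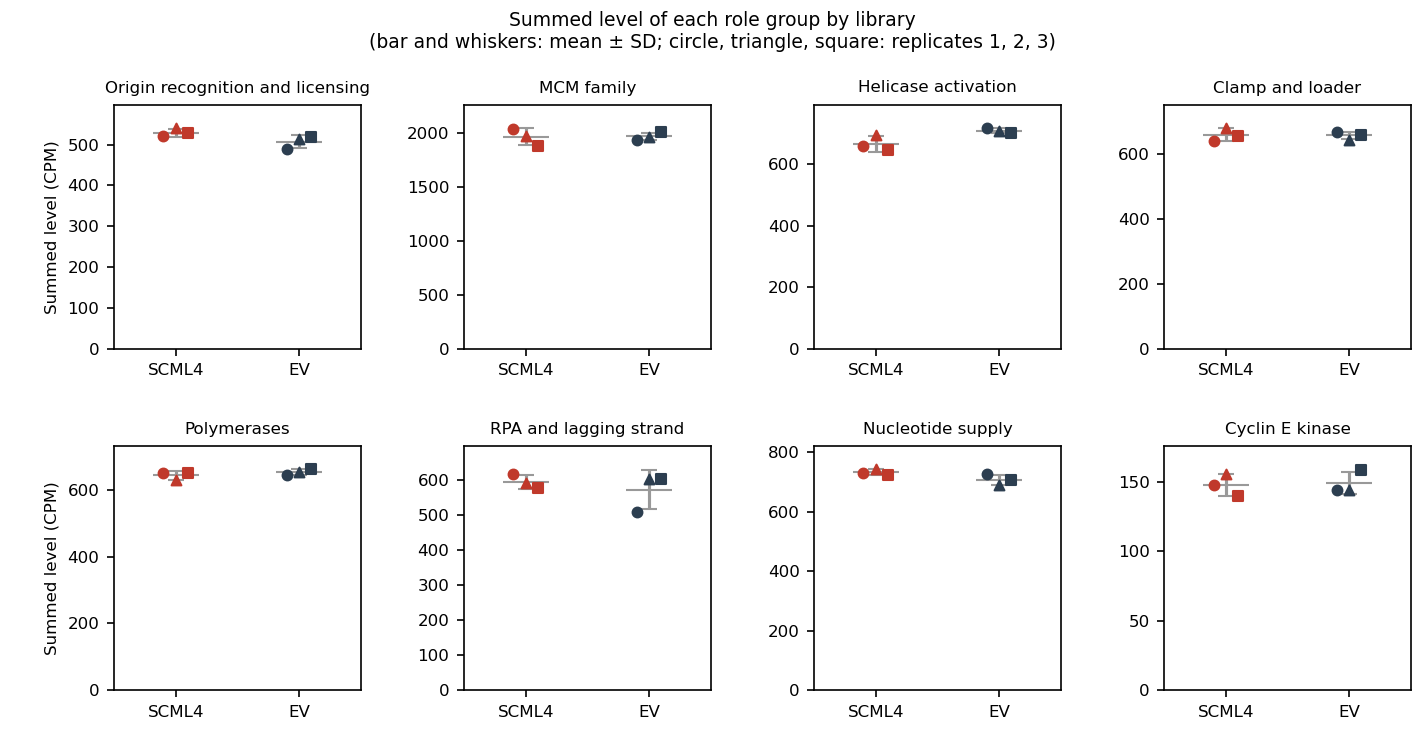
Summed level (CPM, axes starting at 0) of the genes of each role group in SCML4 and EV libraries, with points for replicates and bars for mean ± SD. The helicase activation sums of SCML4 lie below those of EV and the licensing sums of SCML4 above those of EV. With MCM10 taken out the helicase activation sums overlap, as do the licensing sums with CDT1 taken out. In single-strand binding and lagging-strand processing EV replicate 1, at 509.0 CPM, lies below all other libraries.

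Base composition moved with the differences of these genes. GC content of the longest transcript ran between 36.9% for CCNE2 and 65.0% for POLD1, with a median of 45.8%, against 48.1% over all genes tested with a known value. Across the 49 genes, which share the same 6 libraries and are not independent replicates, Pearson's r between GC content and the SCML4 minus EV difference was 0.51, and 0.15 without EV replicate 1. For the deviation of EV replicate 1 itself from the 6-library mean, r with GC content was -0.59, and over all genes tested a Spearman coefficient of -0.52, where the other libraries lay between 0.045 and 0.294. CDT1, MCM7, POLD2 and FEN1, with GC contents of 53.7% to 64.9%, had smaller differences without that library, 0.15, 0.06, 0.02 and -0.0059. The other genes in that range were MCM2, MCM5, LIG1, TK1, POLA2 and POLE. Their differences were 0.05, 0.10, 0.04, -0.01, -0.08 and -0.12 with all libraries. Without EV replicate 1 they were -0.03, 0.02, 0.0087, -0.02, -0.11 and -0.11, so TK1 and POLA2 moved further from 0 and POLE hardly moved. POLD1, the gene of highest GC content, had -0.05 in all libraries. The part of base composition in these differences was not tested beyond the corrected fit, in which the median was -0.02. In that fit 0 of the 49 genes passed the adjusted threshold in limma-trend, against 0.0224% of all genes. With an unadjusted p under 0.05 it left 3 (5.93% of all genes), CDT1 higher (3.16%) and MCM10 and POLE lower (2.78%). Without EV replicate 1 the fit likewise had 0 past the adjusted threshold (0.0982% of all genes) and 3 with an unadjusted p under 0.05 (6.7%), CDT1 higher (4.07%) and CDC6 and MCM10 lower (2.63%).

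**Figure D4:**
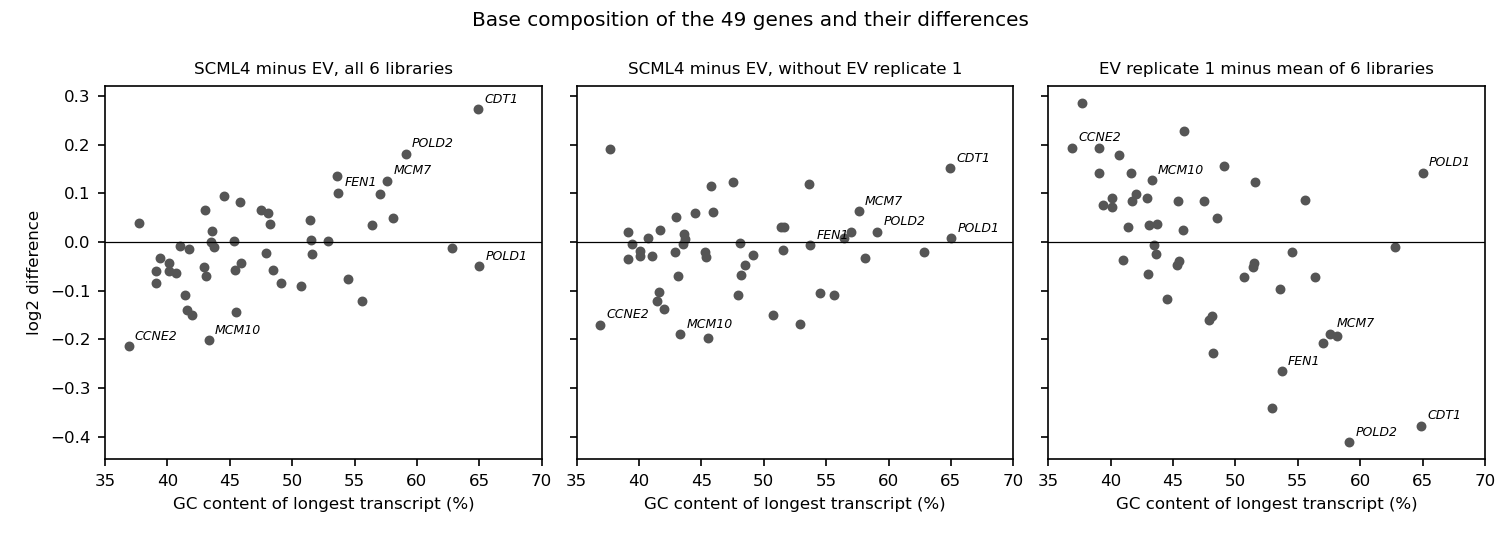
GC content of the longest transcript (%) against the log2 difference of each of the 49 genes, SCML4 minus EV with all libraries (left) and without EV replicate 1 (middle), and against how far EV replicate 1 lay off the 6-library mean (right). The slope with all libraries, r = 0.51, is weaker without EV replicate 1, r = 0.15, and runs the other way in that library itself, r = -0.59.

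Signs of the small medians by role were not stable. When single libraries were left out in turn, the median difference crossed 0 in 7 of the 8 role groups, and only that of helicase activation kept its sign, between -0.08 and -0.03. For the 5 genes whose groups lay apart the sign cannot turn in this way, so the width of the range is what it shows. The log2 difference ran between -0.24 and -0.18 for MCM10, -0.15 and -0.08 for POLE, 0.15 and 0.33 for CDT1, 0.06 and 0.16 for MCM7 and 0.05 and 0.08 for POLD3.

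The wider replication programme was read from 52 other genes of fork progression, origin firing, nucleotide supply, chromatin assembly behind the fork and E2F control. Of these 51 passed the filter, the exception being SAMHD1, the enzyme that degrades nucleotides, at 0.181 ± 0.134 CPM in SCML4 and 0.324 ± 0.289 CPM in EV. None passed the adjusted threshold in limma-trend, 1 had an unadjusted p under 0.05 with a higher level in SCML4 (3.33% of all genes in that direction) and 3 with a lower one (1.93%). Differences were positive for 22 and negative for 29, with a median of -0.03. The groups did not overlap in 10 of the 51, with SCML4 higher in 2 (TYMS and CCNA2; 6.27% of all genes) and lower in 8 (TIPIN, CLSPN, DNA2, RRM2B, SLBP, HELLS, TFDP2 and RBL1; 5.38%). HELLS, a chromatin remodeller needed for DNA methylation and abundant in S phase, stood at 133, 142 and 116 CPM in SCML4 libraries, against 175, 169 and 163 CPM in EV libraries. All EV libraries lay above all SCML4 libraries. Its log2 difference was -0.38 (SE 0.09), with an unadjusted p of 0.000666 (limma-trend; adjusted p = 0.717), and -0.35 without EV replicate 1. Over the alternatives the adjusted p of HELLS ran between 0.098 and 0.99.

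TYMS, which makes thymidylate, was the one gene of these with an unadjusted p under 0.05 and a higher level, at 143, 145 and 132 CPM in SCML4 libraries, against 112, 123 and 125 CPM in EV libraries. Its groups did not overlap, and the log2 difference was 0.22 (SE 0.08), or 0.17 without EV replicate 1. TIPIN, a fork protection factor, stood at 16.8 ± 1.70 CPM in SCML4 and 20.6 ± 0.655 CPM in EV, a log2 difference of -0.28. TFDP2, a dimer partner of E2F, stood at 387 ± 9.78 CPM in SCML4 and 476 ± 113 CPM in EV, where EV replicate 1 was at 606 CPM, and its difference of -0.28 became -0.09 without that library. E2F1, E2F2 and E2F3, the activating E2F factors, had differences of 0.13, 0.04 and -0.03. RB1, the retinoblastoma protein that restrains them, had -0.18. Without EV replicate 1 the differences of E2F1, E2F2, E2F3 and RB1 were 0.08, -0.06, 0.03 and -0.12. Cyclin A2 (CCNA2), which takes over from cyclin E in S phase, stood at 240.1 ± 2.97 CPM in SCML4 and 219.6 ± 10.98 CPM in EV, a log2 difference of 0.13 with groups that did not overlap. CLSPN, a checkpoint mediator at the fork, RRM2B, the p53-induced reductase subunit, and POLD4, the smallest subunit of polymerase delta, had differences of -0.15, -0.17 and 0.47, none with an unadjusted p under 0.05. Among the genes of chromatin behind the fork, CHAF1A, the large subunit of the assembly factor CAF-1, and UHRF1, which guides maintenance methylation, had 0.10 and -0.07.

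**Figure D5:**
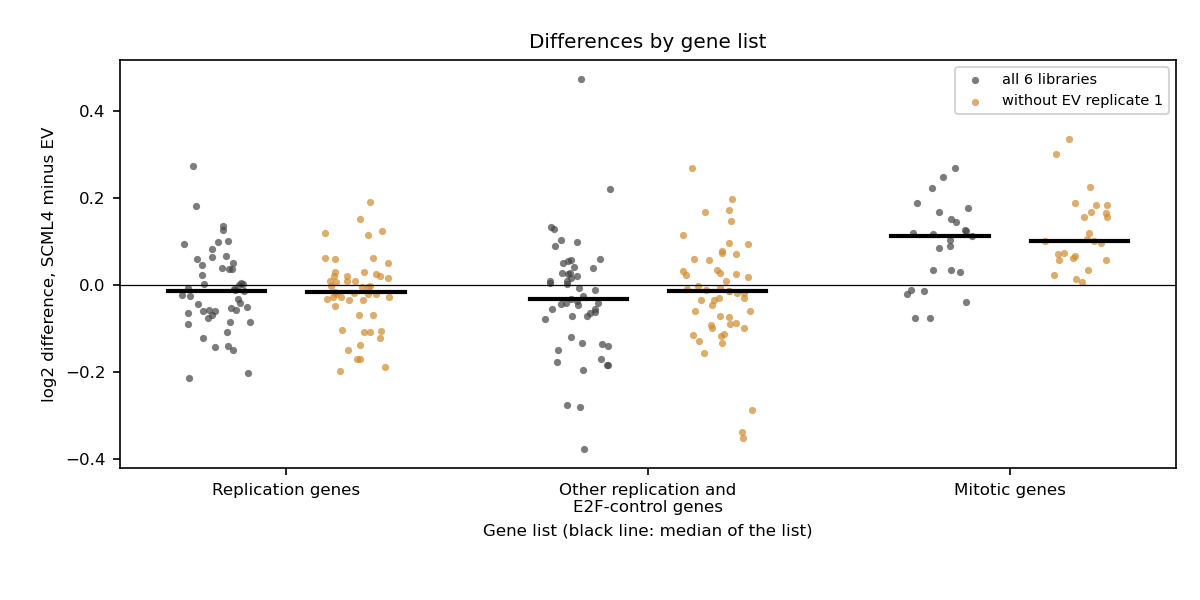
Log2 difference, SCML4 minus EV, of each gene of 3 lists, with all libraries (grey) and without EV replicate 1 (orange), and the median of each list as a black line. The 49 replication genes and the other replication genes lie around 0 with medians of -0.01 and -0.03, and the mitotic genes have a median of 0.11 with all libraries.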

How the data were processed

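RNA-seq was made from 6 Jurkat libraries, 3 SCML4 and 3 EV. TRIzol extraction and a SMARTer mRNA kit were used, per the labels' protocols. FastQC, STAR, SAMtools and hg19 are named, without versions, per the submitters' processing notes. Which tool and annotation served for counting is not stated in these sources. FPKM, by gene symbol, fill the deposited table, 1 column per library, per the file headers, with 15115 of 39012 rows at 0 throughout.

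Reads were worked out from the FPKM steps, and all 23897 rows above 0 (100.0%) came out whole within 0.002 of a read. In 720 rows a common divisor was undone because the implied gene length was not whole. Other common divisors cannot be seen, so the level of a gene can be too low by a whole-number factor against other genes. Between 99.627% and 99.645% of each library total lay on genes, and the limit set by a count of 0 is 3 reads, at most 0.335 CPM (counting error only). The lengths implied by the FPKM are not those of the genes (Spearman -0.006 over 13398 genes, GENCODE 29), so CPM was used. GENCODE lengths gave CPM per kilobase, its transcripts the GC content and its exons the overlaps between genes. Its build differs from hg19, so no coordinates of it are printed. The overlaps may differ from those of the annotation used for counting.

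Genes with a mean of at least 1 CPM were tested by limma-trend (limma 3.58.1, R 4.3.3) on log2(CPM + 1), SCML4 minus EV, with Benjamini-Hochberg adjustment over 14251 genes. Fold changes are on the log2(CPM + 1) scale, which understates changes of low genes. Alternatives were other pseudocounts, filters and scalings, the deposited FPKM (pseudocount 1, mean of at least 0.5), no intensity trend, limma-voom, library weights, a replicate block, a lowess correction (span 0.3) for GC content and length, known for 94.02% of genes, and leaving out each library. Scripts were tested on simulated data. Named genes were those of smallest unadjusted p per role or list, those whose groups did not overlap, and a set of canonical members. The members and lists were chosen with earlier results of these data known.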

Additional observations from a re-analysis of the deposited data

How the results depend on the processing

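Of the 49 replication genes 0 passed the adjusted threshold under every alternative run. The count over all genes, 1 in the comparison as reported, was 2 with median-of-ratios scaling, 3 with quantile normalization, 20 with library weights, 3 after GC and length correction and 0 on the deposited FPKM (781 at an unadjusted p under 0.05). There the adjusted p of SCML4 was 0.0619, with a log2 difference of 1.88. Leaving out single libraries gave 1 to 14, the 14 without EV replicate 1. Replicate numbers did not pair the libraries, the correlations of same-numbered libraries being -0.057, -0.115 and -0.045, and the replicate block called 2 genes, none of the 49. Genes whose groups lay apart were 5 as reported and 7 to 13 with single libraries left out, where fewer values make overlap less likely. The median of the 49 differences, -0.0141 as reported, was 0.0095 with library weights (28 positive, 21 negative) and ran between -0.0421 and 0.0161 with single libraries left out. The median of origin licensing was 0.0736 with library weights. With single libraries left out that median ran between -0.0688 and 0.0523, that of the polymerases between -0.0794 and 0.0060 and that of the cyclin E kinase between -0.1705 and 0.0443. A 6-letter core of the E2F motif lay in 97.6% of the genes with a promoter window and in 50.2% of all genes.

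Of 769 values of named genes under an alternative 35 had the other sign, 13 of them outside the leave-outs, and in each the cause was not tested. CCNE1 was at -0.0001 with a pseudocount of 5 CPM, -0.0015 with median-of-ratios scaling, -0.0196 with quantile normalization and -0.0566 after GC and length correction. PCNA was at -0.0005 with median-of-ratios scaling and -0.0126 after the correction. CDK2 was at -0.0025 with quantile normalization and -0.0318 after the correction. RRM1 was at 0.0171 with quantile normalization, 0.0103 with library weights and 0.0185 after the correction, and MCM2 at -0.0281 with library weights and -0.0198 after the correction. With single libraries left out, RPA2 ran between -0.0222 and 0.1451, CDK2 between -0.0272 and 0.0443, MCM2 between -0.0339 and 0.1453, PCNA between -0.0219 and 0.0445, TK1 between -0.0421 and 0.0257, CDC45 between -0.0341 and 0.1380, CCNE1 between -0.1705 and 0.1590, RRM1 between -0.0358 and 0.0452 and FEN1 between -0.0059 and 0.1585.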

Other observations

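Genes of mitosis, the phase that follows S and G2 in the cycle, had mostly positive differences. Of 25 tested, 0 passed the adjusted threshold in limma-trend and 4 had an unadjusted p under 0.05, all higher in SCML4 (3.33% of all genes in that direction). Differences were positive for 19 and negative for 6, with a median of 0.11 on the log2 scale, where the replication genes had -0.01 and all genes tested 0.01. Without EV replicate 1 all 25 were positive, with a median of 0.10, and 8 had an unadjusted p under 0.05 in limma-trend (4.07% of all genes). After the correction for GC content and length 21 were positive and 4 negative, with a median of 0.11. In that fit 1 gene, PLK1, had an unadjusted p under 0.05 (3.16% of all genes). PLK1, the kinase of mitotic entry, stood at 163, 152 and 151 CPM in SCML4 libraries, against 120.1, 130 and 143 CPM in EV libraries. Its groups did not overlap, and the log2 difference was 0.25, or 0.19 without EV replicate 1. CDC20, which activates the anaphase-promoting complex, had 0.27, and ESPL1, the protease that parts sister chromatids, had 0.17. The summed level of the list was 4809.8 ± 202.4 CPM in SCML4 and 4644.0 ± 234.2 CPM in EV (mean ± SD), and the sums of the groups overlapped. Whether the mitotic and the replication lists differ from each other was not tested.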
